A study of Mus musculus with 21 samples.

Results

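Fatty acid synthesis and desaturation in small intestinal IgA+ plasma cells (IgA+ PCs) was described through 10 genes: the transcription factor gene *Srebf1*, the enzymes of palmitate synthesis *Acly*, *Acaca* and *Fasn*, the elongases *Elovl5* and *Elovl6*, and the desaturases *Scd1*, *Scd2*, *Fads1* and *Fads2*. They were taken by gene name from a table of read counts for 53801 genes, each name matched 1 row, and all 10 were among the 20256 genes with a total count of at least 10 that were tested. IgA+ PCs are the antibody-secreting cells of the gut wall, and they were sorted as CD138+ IgA+ cells from lamina propria of the small intestine in C57BL/6 mice.

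Bulk RNA-seq compared lights on (Zeitgeber time, ZT0) with lights off (ZT12) in 2 genotypes, with 6 control libraries at ZT0, 6 control libraries at ZT12, 4 knockout libraries at ZT0 and 5 knockout libraries at ZT12. Control mice were Mb1Cre-/- x Arntlfl/fl and knockout mice were Mb1Cre+/- x Arntlfl/fl, with 1 Mb1-driven Cre allele, so that both genotypes shared the floxed alleles and differed in Cre. *Arntl* encodes Bmal1, a core protein of the circadian clock, and *Mb1* (*Cd79a*) is a B lineage gene, so Cre acts in B cells and not in plasma cells alone. The mice were co-housed littermates of mixed genotype with free access to food. The ages of the mice are not given in the sources used here. Groups follow the sample titles, because 8 of the 9 samples titled as knockout carry the genotype of the controls in a separate field. *Cd79a*, which holds the Cre allele, lay between 163 and 276 CPM (read counts scaled to a common library size) in the 9 knockout libraries and between 386 and 586 CPM in the 12 control libraries, with no overlap. The genotypes thus also differed in the level of *Cd79a*, and comparisons between them cannot separate this from the loss of Bmal1. *Arntl* itself, counted over the whole gene and not over the deleted part, was at 6.83 to 8.36 CPM in control libraries at ZT0 and at 4.08 to 6.47 CPM in knockout libraries at ZT0, and at ZT12 at 4.00 to 5.56 and 3.11 to 4.93 CPM. Averaged over the times its log2 fold change of knockout over control was -0.45 and did not pass the adjustment (adjusted p = 0.844 by edgeR). Its unadjusted p was 0.00067 by edgeR, at rank 16 of the genes tested. The paper reports efficient deletion of *Arntl* in IgA+ PCs by RT-PCR, and disturbed clock gene expression in the knockout by RNA-seq.

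Cells make fatty acids from citrate. *Acly* encodes ATP citrate lyase, which gives cytosolic acetyl-CoA, *Acaca* encodes acetyl-CoA carboxylase, which makes malonyl-CoA, and *Fasn* encodes fatty acid synthase, which builds palmitate. Elongases lengthen the chain in the endoplasmic reticulum, stearoyl-CoA desaturases (*Scd1*, *Scd2*) add the first double bond of monounsaturated fatty acids, and *Fads1* and *Fads2* encode the delta-5 and delta-6 desaturases of polyunsaturated fatty acid synthesis. *Srebf1* encodes SREBP1, a membrane-bound transcription factor that is released by proteolysis and acts on many of these genes, while its relative SREBP2 (*Srebf2*) is best known for its action on cholesterol synthesis. Plasma cells hold an extended endoplasmic reticulum, whose membranes are built from such lipids.

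Promoter sequences were held for 7 of the 10 genes in the RefSeq promoter table (build GRCm38.p6), and there was no entry for *Fads1*, *Scd1* and *Scd2*. The 250 bases before the annotated start of *Fasn* and *Acly*, which were lower at ZT12 in control mice, and of *Elovl5*, which was not called, are shown 5′ to 3′ on the strand of the gene so that their motifs can be compared. These 3 were picked with their values in view. The *Fasn* stretch is chr11:120824548-120824797 (minus strand), the *Acly* stretch is chr11:100528001-100528250 (minus strand) and the *Elovl5* stretch is chr9:77917115-77917364 (plus strand). Capitals mark matches on either strand to the sterol regulatory element core TCACNCCAC, the E-box CACGTG or the NF-Y box CCAAT.
Fasn: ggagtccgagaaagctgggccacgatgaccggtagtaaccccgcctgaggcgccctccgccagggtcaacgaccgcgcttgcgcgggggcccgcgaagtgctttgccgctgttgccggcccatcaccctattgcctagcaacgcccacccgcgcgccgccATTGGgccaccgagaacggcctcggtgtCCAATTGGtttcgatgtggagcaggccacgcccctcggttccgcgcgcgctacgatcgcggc
Acly: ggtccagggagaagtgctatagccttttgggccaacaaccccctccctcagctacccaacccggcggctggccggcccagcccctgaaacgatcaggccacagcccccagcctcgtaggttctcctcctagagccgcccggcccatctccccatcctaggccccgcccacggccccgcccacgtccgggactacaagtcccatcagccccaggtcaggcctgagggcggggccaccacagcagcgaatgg
Elovl5: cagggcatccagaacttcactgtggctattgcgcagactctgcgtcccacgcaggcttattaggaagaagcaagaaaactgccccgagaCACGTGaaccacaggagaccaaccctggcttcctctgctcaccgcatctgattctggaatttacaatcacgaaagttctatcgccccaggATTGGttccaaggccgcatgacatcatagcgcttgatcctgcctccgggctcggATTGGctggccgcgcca
The NF-Y box occurred 3 times in the *Fasn* stretch, of which 2 matches overlap each other, and the *Elovl5* stretch held 2 matches. The *Elovl5* stretch also held the only E-box among the 7 genes with an entry, 161 to 156 bases before the start. The *Acly* stretch held none of the 3 motifs. Over all 32851 promoters of the table, the same 250 bases held the NF-Y box in 33.8%, the E-box in 6.02% and the sterol regulatory element core in 1.05%. Among the 9 promoters of the 7 genes, 4 held the NF-Y box, 1 held the E-box and 0 held the sterol regulatory element core as spelled here.

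The libraries held 14471018 to 22785835 counts, of which immunoglobulin genes took 51.5% to 63.6% and other genes 5903489 to 10087668 counts. The immunoglobulin share was 51.5% to 53.3% in control libraries at ZT0 (median 53.2%), 53.3% to 63.6% at ZT12 (median 57.0%), 53.6% to 59.4% in knockout libraries at ZT0 (median 53.6%) and 53.7% to 55.7% at ZT12 (median 54.3%). It was above 58% in 4 libraries, control ZT12 replicates 2, 4 and 5 and knockout ZT0 replicate 3. Markers of intestinal epithelium summed to 55.8 to 359 CPM in the libraries at ZT0 of control mice, and exceeded 800 CPM in control ZT12 replicate 5 (1048 CPM) and knockout ZT12 replicate 5 (819 CPM). Adipocyte markers, which matter for lipogenic genes, were at or near 0, with *Plin1*, *Lep*, *Retn* and *Cfd* at 0 in every library and a highest sum of 3.12 CPM over the list of 8, in control ZT12 replicate 5. Plasma cell markers (*Sdc1*, *Jchain*, *Xbp1*, *Prdm1*, *Irf4*, *Mzb1*, *Tnfrsf17* and *Igha*) summed to 281770 to 593590 CPM. Of 16 epithelial markers tested, 0 passed in the time of day comparison of control mice. An unadjusted p under 0.05 with a higher level at ZT12 was found for 7 of them, beside 1862 of all genes tested. Averaged over the genotypes 0 of the 16 passed and 12 had such a p, beside 1740 of all genes, with a median log2 fold change of 2.31. In control mice 0 markers of T cells (9 tested), myeloid cells (9) and other B cells (8) passed. Of 8 markers of fibroblasts and endothelium *Pecam1* passed in control mice, with a log2 fold change of -0.51. No 2 libraries of a group agreed within sampling noise. In bulk samples, fewer cells of a type and less RNA per cell cannot be told apart.

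Levels are given as CPM scaled by the trimmed mean of M values (TMM), and compared between genes only per kb of the gene length in the table. In control mice at ZT0 the genes fell into a higher and a lower range by CPM per kb. The higher range held *Fads2* at 21.9 ± 2.16 (SD, n = 6), *Elovl5* at 20.6 ± 3.46, *Scd2* at 16.9 ± 1.70, *Srebf1* at 15.6 ± 1.46, *Acly* at 15.5 ± 0.902 and *Fasn* at 13.8 ± 1.98 CPM per kb. Within it, neighbours in this order differed by less than their SD, except *Elovl5* and *Scd2*, which differed by more. The lower range held *Fads1* at 4.23 ± 0.162, *Scd1* at 3.27 ± 0.783, *Elovl6* at 1.77 ± 0.170 and *Acaca* at 0.450 ± 0.103 CPM per kb, each separated from the next by more than the larger SD with the lengths of the table. The places of *Fads2* and *Fads1* rest on lengths of 1508 and 3456 bases in the table, 45.8% and 71.8% of the 3295 and 4812 bases that their exons cover in GENCODE M21. With the GENCODE length, a choice made after the data were seen, the level of *Fads2* was 10.02 CPM per kb, below that of *Fasn*, and that of *Fads1* was 3.04 beside 3.24 for *Scd1*, so that both orders turned and *Fads1* and *Scd1* differed by less than the SD. *Scd2*, the isoform usually described in brain, lay above *Scd1*, the main isoform of liver and fat.

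**Figure D1:**
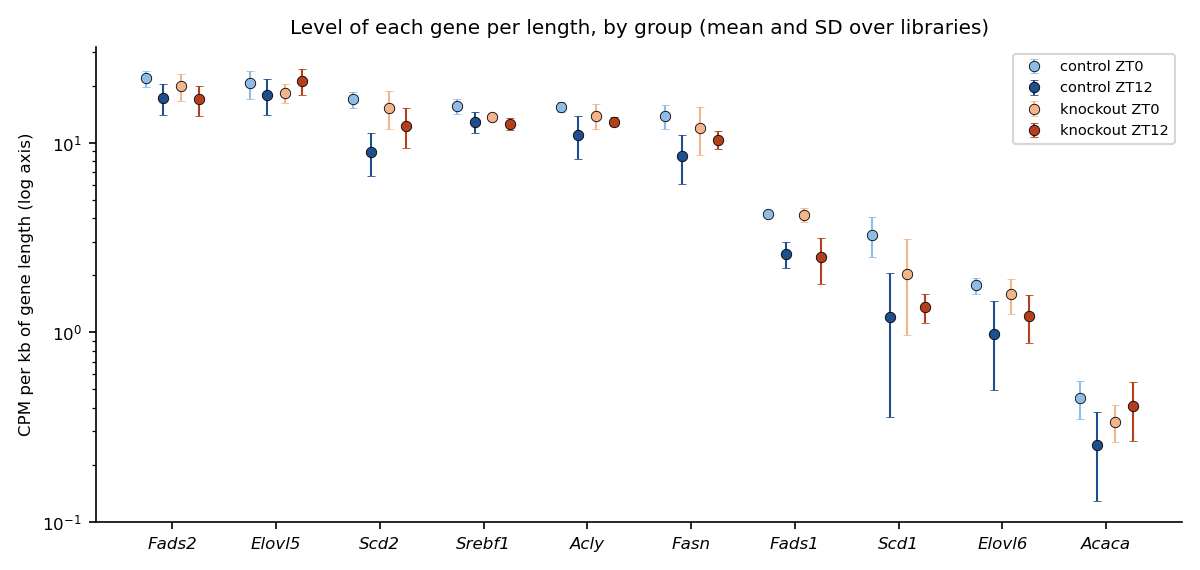
CPM per kb of gene length (log axis) for the 10 genes in the 4 groups, as mean and SD over 4 to 6 libraries. In control mice at ZT0 the means run from 0.450 (*Acaca*) to 21.9 (*Fads2*), a range that spans genes of 1508 to 17074 bases.

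The first comparison asked how the genes differed between ZT0 and ZT12 in control mice. All 10 genes had a lower fitted level at ZT12, with a median log2 fold change of -0.70 against 0.01 over all genes tested. Of the 10, 4 passed the test and fell: *Scd2*, *Fads1*, *Fasn* and *Acly*. Over all genes, 350 (1.73%) passed it in either direction, 192 higher and 158 lower at ZT12. Scaled by library size only, which moves the median of all genes by -0.20, the split was 48 of 446 higher, all 10 genes still had a lower fitted level and 6 of them passed. A further 5 genes had an unadjusted p under 0.05 but did not pass the adjustment, and *Elovl5* had an unadjusted p of 0.142. Over all 20256 genes tested, 3657 had an unadjusted p under 0.05, 1795 of them lower at ZT12. The test was edgeR's quasi-likelihood test with Benjamini-Hochberg adjustment at 0.05.

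**Figure D2:**
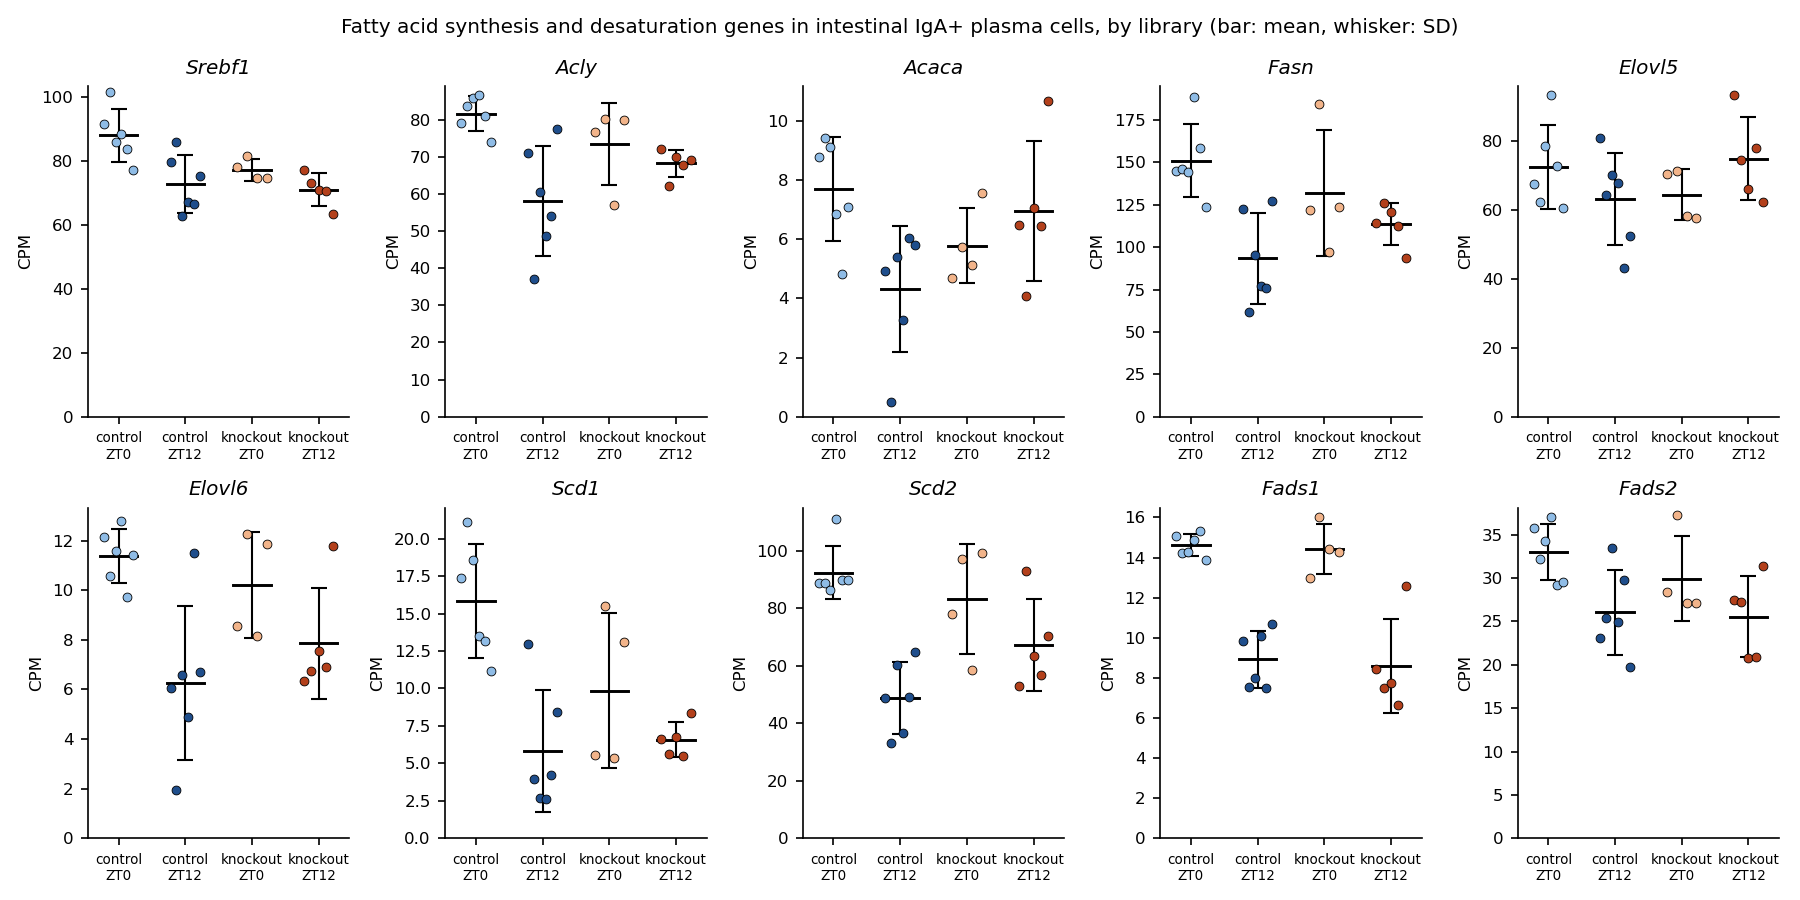
CPM of each gene in each of the 21 libraries (points), with the group mean (bar) and SD (whisker); each panel has its own axis from 0. The control libraries at ZT12 lie below all control libraries at ZT0 for *Scd2* and *Fads1*, and the knockout libraries at ZT12 lie below all knockout libraries at ZT0 for *Fads1*.

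Among the desaturases, *Scd2* (chr19:44293676-44306864, plus strand), 1 of the stearoyl-CoA desaturases, ranged from 86.3 to 111 CPM at ZT0 (median 89.3) and from 33.2 to 64.9 CPM at ZT12 (median 48.9). The groups did not overlap, and its log2 fold change was -0.92 (SE 0.16, adjusted p = 0.0107 by edgeR). *Fads1* (chr19:10182888-10196870, plus strand) ranged from 13.9 to 15.3 CPM at ZT0 (median 14.6) and from 7.48 to 10.7 CPM at ZT12 (median 8.91). These groups did not overlap either, and the log2 fold change was -0.71 (SE 0.13, adjusted p = 0.0113 by edgeR). All ZT12 libraries lay below all ZT0 libraries for 174 of the genes tested (0.859%), and for these 2 of the 10. *Scd1* (chr19:44394451-44407709, minus strand) had the largest fitted difference of the 10 and the widest interval. Its level ranged from 11.2 to 21.1 CPM at ZT0 (median 15.5) and from 2.64 to 12.96 CPM at ZT12 (median 4.08), where 5 of the 6 libraries lay below all libraries of ZT0. The log2 fold change of *Scd1* was -1.42 (95% interval -2.19 to -0.66), and it did not pass the adjustment (adjusted p = 0.0557 by edgeR). *Fads2* (chr19:10064164-10101503, minus strand), the neighbour of *Fads1* on chromosome 19, ranged from 29.2 to 37.1 CPM at ZT0 and from 19.7 to 33.5 CPM at ZT12, and the groups overlapped. Its log2 fold change was -0.34 (SE 0.12, adjusted p = 0.150 by edgeR).

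Of the enzymes from citrate to palmitate, *Fasn* (chr11:120805846-120824547, minus strand) ranged from 123 to 189 CPM at ZT0 (median 145) and from 62.0 to 127 CPM at ZT12 (median 86.2). Of the 6 libraries at ZT12, 5 lay below all libraries of ZT0, and *Fasn* fell by 0.69 on the log2 scale (SE 0.16, adjusted p = 0.0372 by edgeR). *Acly* (chr11:100476353-100528000, minus strand) ranged from 73.8 to 86.5 CPM at ZT0 (median 82.2) and from 37.0 to 77.4 CPM at ZT12 (median 57.3), again with 5 of 6 libraries below all of ZT0. It fell by 0.49 on the log2 scale (SE 0.13, adjusted p = 0.0445 by edgeR). *Acaca* (chr11:84129672-84401651, plus strand) was counted thinly, with 8 to 182 counts per library. It ranged from 4.83 to 9.42 CPM at ZT0 and from 0.486 to 6.03 CPM at ZT12, with a log2 fold change of -0.83 (SE 0.35, adjusted p = 0.216 by edgeR). The lowest value came from 8 counts in control ZT12 replicate 2, for which counting error alone gives a 95% Wilson interval of 0.246 to 0.959 CPM. Without that library the log2 fold change of *Acaca* was -0.59. In control ZT12 replicate 2 the trend of log2 level with gene length was -0.48 at *Acaca*, -0.35 at *Fasn* and 0.45 at *Fads2*. With this trend removed from every library, 5 of the 10 genes passed in control mice, with a median log2 fold change of -0.62. These were *Acly*, *Fasn*, *Scd2*, *Fads1* and *Fads2*. The trend at *Fads2* was read at its listed length of 1508 bases, which is 45.8% of the 3295 bases of its exons in GENCODE M21. At *Elovl5*, with 3522 bases, the trend in control ZT12 replicate 2 was 0.07. Whether *Fads2* passes with the GENCODE length was not tested. The source of the length trend was not tested.

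The elongases differed from each other. *Elovl6* (chr3:129532355-129638495, plus strand), which takes palmitate to stearate, ranged from 9.72 to 12.8 CPM at ZT0 (median 11.5) and from 1.94 to 11.5 CPM at ZT12 (median 6.33). Of the ZT12 libraries 5 lay below all of ZT0, and the sixth, control ZT12 replicate 5 at 11.5 CPM, was the control library with 1048 CPM of epithelial markers. The log2 fold change of *Elovl6* was -0.86 (SE 0.25, adjusted p = 0.0845 by edgeR). Without the 2 libraries of over 800 CPM of epithelial markers, a choice made after the data were seen, it was -1.11 (adjusted p = 0.0125 by edgeR), and *Scd2*, *Fads1* and *Elovl6* were the 3 genes that passed. With the epithelial marker level of each library as a covariate, and all 21 libraries kept, the same 3 genes passed. The part of epithelial RNA in the level of *Elovl6* was not tested beyond this. *Elovl5* (chr9:77917364-77984519, plus strand), which lengthens polyunsaturated chains, ranged from 60.6 to 93.3 CPM at ZT0 and from 43.2 to 80.8 CPM at ZT12, and its log2 fold change was -0.20 (95% interval -0.47 to 0.07). *Srebf1* (chr11:60199089-60222581, minus strand), the transcription factor gene, ranged from 77.0 to 101 CPM at ZT0 and from 62.6 to 86.0 CPM at ZT12. Its log2 fold change of -0.27 (SE 0.09, adjusted p = 0.109 by edgeR) was smaller in size than those of the other genes except *Elovl5*. *Srebf1* overlaps *Rai1* on the other strand, which held 9524 counts against the 27260 of *Srebf1*, and whether counting used strand is not given in the sources used here.

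For part of the genes, the differences in control mice moved with the immunoglobulin share of the libraries. All 6 control libraries at ZT12 had a higher share than every control library at ZT0, though by less than 0.01 percentage points in the closest, and the 3 control libraries above 58% held the lowest levels of *Acly* and *Fasn* among the 21 libraries. These were 37.0, 48.5 and 54.1 CPM of *Acly* and 62.0, 77.2 and 75.8 CPM of *Fasn*. Without the 4 libraries above 58%, a choice made after the data were seen, 0 of the 10 genes passed and 12 genes passed in all. The members' median log2 fold change was then -0.45, and all 10 had a lower fitted level at ZT12. Of the members 9 had an unadjusted p under 0.05, beside 1774 of the 19631 genes tested in that fit. With the share as a covariate 0 members and 0 genes of the table passed. Of the members 5 then had an unadjusted p under 0.05, beside 1648 of the 20256 genes tested. The log2 fold changes of *Scd2* and *Fads1* were -0.56 and -0.59 in that fit, against -0.16 for *Acly* and -0.36 for *Fasn*. Those of *Srebf1* and *Fads2* were -0.33 and -0.28 with the covariate, and -0.27 and -0.37 without the 4 libraries. The part of the immunoglobulin share in these differences was not tested beyond this, since the share and the time of day moved together in control mice. DESeq2, run without the covariate, called 7 of the 10 genes (*Srebf1*, *Acly*, *Fasn*, *Elovl6*, *Scd1*, *Scd2* and *Fads1*). *Scd2* and *Fads1* passed in each of 21 fits that left out 1 library, *Fasn* in 12 and *Acly* in 5.

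**Figure D3:**
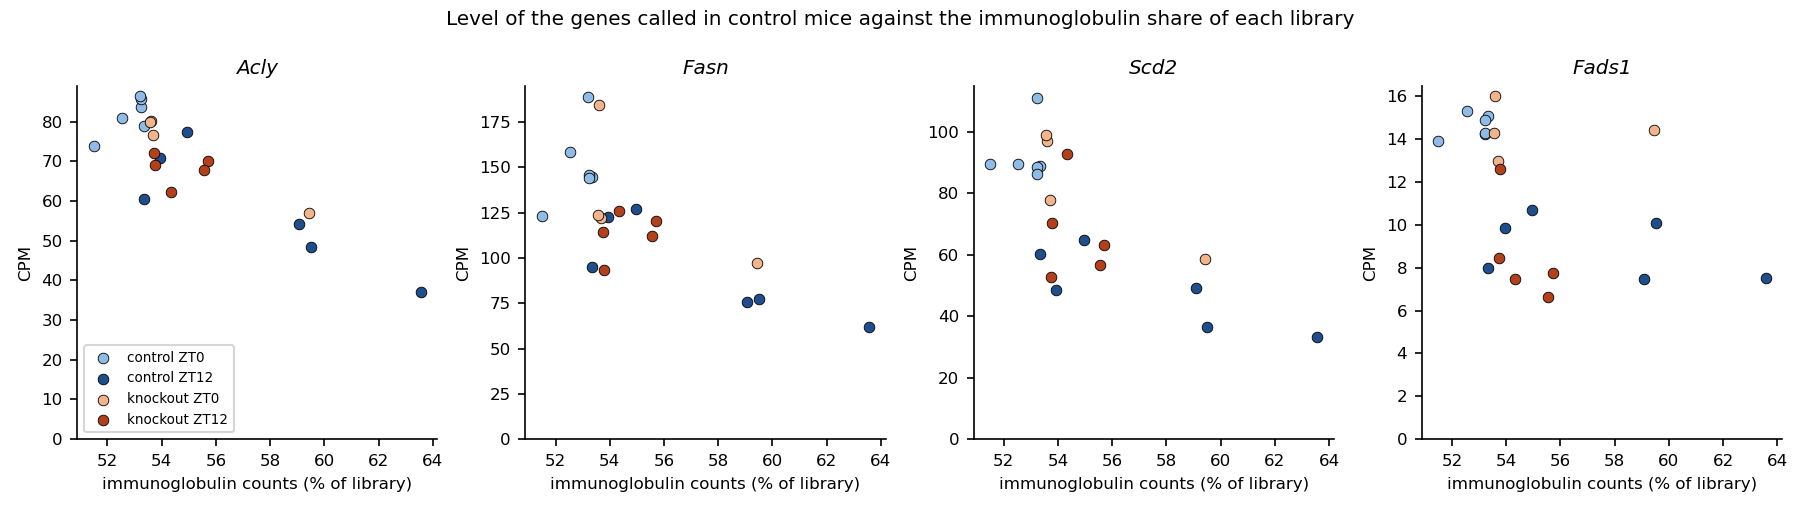
CPM of the 4 genes called in control mice (vertical axes, from 0) against the percentage of a library's counts on immunoglobulin genes (horizontal axes), with 1 point per library coloured by group. *Acly* is lowest where the share is highest. In the knockout library at ZT0 with 59.4%, *Acly* (56.9 CPM), *Fasn* (97.1 CPM) and *Scd2* (58.6 CPM) are the lowest of their group. *Fads1*, at 14.4 CPM in that library, lies within the range of the other ZT0 libraries.

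The second comparison asked the same question in knockout mice. The edgeR test called 0 genes of the table (0%), and so 0 of the 10, while 1622 genes had an unadjusted p under 0.05 and DESeq2 called 47. Of the 10 genes 8 had a lower fitted level at ZT12, with a median log2 fold change of -0.22. *Fads1* alone had an unadjusted p under 0.05, as had 4.09% of all genes in that direction. It was at 12.97, 16.0, 14.4 and 14.3 CPM in the 4 libraries at ZT0 and at 8.45, 7.48, 7.73, 6.63 and 12.6 CPM in the 5 at ZT12. Every ZT12 library lay below every ZT0 library, as for 286 genes (1.41%), and among the members this held for *Fads1* only. The log2 fold change of *Fads1* was -0.75 (SE 0.15, adjusted p = 0.230 by edgeR), the second smallest p of 20256 genes. The library at 12.6 CPM was knockout ZT12 replicate 5, that of high epithelial markers. Without it the log2 fold change was -0.94 (adjusted p = 0.00533 by edgeR), the only call of *Fads1* in 21 fits without 1 library. The control library with most epithelial markers, control ZT12 replicate 5 at 1048 CPM, held the lowest *Fads1* of its group, 7.48 CPM. The part of epithelial RNA in the level of *Fads1* was not tested. DESeq2 called *Fads1* on all libraries (adjusted p = 0.0133).

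The other members overlapped between the times in knockout mice. *Scd2* was at 77.9, 97.2, 58.6 and 99.1 CPM at ZT0 and at 52.8, 93.0, 63.2, 56.7 and 70.5 CPM at ZT12, with a log2 fold change of -0.31 (95% interval -0.69 to 0.08). *Scd1* split at ZT0 into 15.5 and 13.1 CPM in replicates 2 and 4 and 5.55 and 5.34 CPM in replicates 1 and 3, and lay between 5.47 and 8.38 CPM at ZT12. *Fasn* was at 122, 184, 97.1 and 124 CPM at ZT0 and at 114, 126, 121, 112 and 93.5 CPM at ZT12, with a log2 fold change of -0.22 (95% interval -0.60 to 0.17). *Acly* was at 76.6, 80.1, 56.9 and 79.8 CPM at ZT0 and at 72.0, 62.2, 70.0, 67.8 and 69.1 CPM at ZT12. For *Acly* the library at 56.9 CPM was the one with an immunoglobulin share of 59.4%, and the other 3 lay above all 5 libraries of ZT12. *Elovl6* at ZT12 was at 6.35, 6.75, 7.53, 6.89 and 11.8 CPM, the last again in replicate 5, against 8.57, 12.2, 8.14 and 11.9 CPM at ZT0. *Acaca* and *Elovl5* were the 2 genes with a higher fitted level at ZT12, with log2 fold changes of 0.26 (95% interval -0.57 to 1.10) and 0.22 (95% interval -0.10 to 0.53). The log2 fold changes of *Srebf1* and *Fads2* were -0.12 (95% interval -0.33 to 0.09) and -0.23 (95% interval -0.52 to 0.07).

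**Figure D4:**
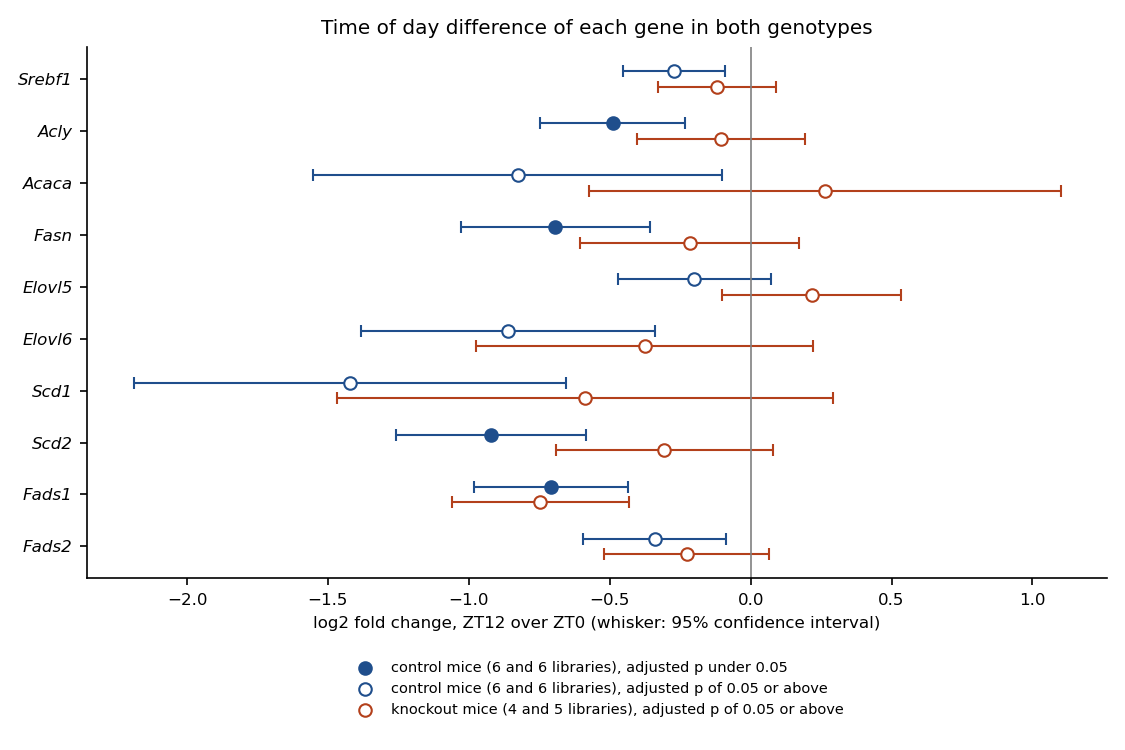
Log2 fold change of ZT12 over ZT0 for each gene in control mice and knockout mice, with 95% confidence intervals; filled points passed the adjusted test. *Fads1* sits at -0.71 and -0.75 in the 2 genotypes, and the intervals of 9 genes reach 0 in knockout mice.

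Averaged over the genotypes, 163 of all genes (0.805%) passed the time of day test and 2 of the 10 did, both desaturases. *Fads1* fell by 0.73 on the log2 scale (SE 0.10, adjusted p = 0.000445 by edgeR), the fifth smallest p of the table, and passed in all 21 fits without 1 library and in all 12 other settings. *Scd2* fell by 0.61 (SE 0.12, adjusted p = 0.0165 by edgeR), and passed in all 21 fits without 1 library and in 11 of the 12 settings. With the immunoglobulin share as a covariate, and also without the 4 libraries of high share, both genes still passed. A further 6 genes had an unadjusted p under 0.05 and log2 fold changes from -1.005 (*Scd1*) to -0.20 (*Srebf1*). *Acaca* (-0.28, 95% interval -0.83 to 0.27) and *Elovl5* (0.01, 95% interval -0.20 to 0.22, but -0.10 with library size only) did not. Over all genes tested 3122 had an unadjusted p under 0.05 in the average, 1382 of them lower at ZT12. The average uses the same libraries as the comparisons within each genotype and is not separate evidence.

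Whether the time of day difference itself depended on genotype was tested as an interaction. The edgeR test called 0 genes (0%), and so 0 of the 10, although 2191 genes (10.8%) had an unadjusted p under 0.05 and DESeq2 called 4. Of the 10 genes, 9 had a positive term, that is a smaller decrease or an increase in knockout mice, with a median of 0.45 against 0.01 over all genes, and with library size only all 10 were positive beside a shift of 0.19 over all genes. *Scd2* alone had an unadjusted p under 0.05, with an interaction of 0.61 (95% interval 0.10 to 1.13, adjusted p = 0.442 by edgeR). *Acaca*, *Elovl5*, *Acly* and *Fasn* followed with 1.09 (95% interval -0.02 to 2.20), 0.42 (95% interval -0.001 to 0.83), 0.38 (95% interval -0.01 to 0.78) and 0.48 (95% interval -0.04 to 0.99). For *Fads1* the term was -0.04 (95% interval -0.45 to 0.38), and 0.14 with library size only. With the immunoglobulin share as a covariate the median of the 10 terms was 0.17, and without the 4 libraries of high share it was 0.15.

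Between the genotypes at the same time, 0 of the 10 genes passed in any comparison. At ZT0, where 2 genes passed in all (0.00987%), the 10 log2 fold changes of knockout over control were all negative, from -0.68 (*Scd1*, 95% interval -1.53 to 0.17) to -0.02 (*Fads1*), and 0 had an unadjusted p under 0.05. With the immunoglobulin share as a covariate 6 of the 10 were negative, and their median was -0.07 in place of -0.16, while without the 4 libraries of high share all 10 were negative with a median of -0.08. At ZT12, where 3 genes passed (0.0148%), 7 of the 10 had a higher fitted level in knockout mice (10 with library size only, which moves all genes by 0.12, and 5 without the 4 libraries of high immunoglobulin share). *Scd2*, at 48.7 ± 12.5 CPM (SD, n = 6) in control and 67.2 ± 15.9 CPM (SD, n = 5) in knockout mice, was the only member with an unadjusted p under 0.05 (log2 fold change 0.46, SE 0.17, adjusted p = 0.562 by edgeR). At ZT12 1789 of all genes tested had an unadjusted p under 0.05. Averaged over the times, 7 genes passed (0.0346%), and the 10 log2 fold changes lay between -0.26 and 0.16. DESeq2 also called 0 of the 10 in each of the 3 comparisons.

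Variation between mice of 1 group was examined as deviations of log2 CPM from the group means over the 21 libraries. Of 45 pairs of genes 32 had a positive Pearson's r, with a median of 0.29, and 2 pairs passed a two-sided permutation test of r after Benjamini-Hochberg adjustment over the 45 pairs. *Acaca* and *Elovl6* had r = 0.89 (permutation p = 0.0001, adjusted 0.0045) and Spearman's rho = 0.79 (permutation p = 0.00033, adjusted 0.0149), and r = 0.72 without the 2 libraries farthest from the median of *Acaca*. *Acly* and *Fasn* had r = 0.81 (permutation p = 0.00074, adjusted 0.01665) and rho = 0.71 (permutation p = 0.00523, adjusted 0.0784), and r = 0.71 without 2 libraries. These libraries share their normalization and differ in immunoglobulin share. With that share the deviations had r = -0.84 for *Acly*, -0.70 for *Scd2*, -0.67 for *Fasn*, -0.63 for *Acaca* and -0.54 for *Elovl6*. For *Scd1*, *Fads1*, *Elovl5*, *Fads2* and *Srebf1* r was -0.40, -0.30, -0.21, -0.13 and 0.24. With the log2 sum of epithelial markers r was -0.63 for *Srebf1*, -0.61 for *Elovl5*, -0.43 for *Fasn*, -0.23 for *Scd1* and -0.20 for *Acly*. It was 0.15 for *Fads1*, 0.16 for *Scd2*, 0.25 for *Acaca*, 0.48 for *Fads2* and 0.51 for *Elovl6*. These values with library measures are given as a description.

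The wider pathway was read from lists of genes around the members, tested in the same fit. Among 11 tested genes of SREBP control and lipogenic regulation, *Srebf2* was the only one to pass in control mice, and it fell by 0.58 on the log2 scale (SE 0.09, adjusted p = 0.00475 by edgeR), from 368 to 247 CPM on average. In knockout mice its mean levels were 340.5 and 271 CPM (log2 fold change -0.33, adjusted p = 0.515 by edgeR). *Insig1*, whose protein holds SREBPs in the endoplasmic reticulum and is itself a target of them, had a log2 fold change of -0.42 in control mice (adjusted p = 0.0597 by edgeR). *Insig2* had -0.06, the SREBP escort gene *Scap* -0.16, and the liver X receptor genes *Nr1h2* and *Nr1h3* -0.02 and 0.13, and these 5 did not pass. Of the cholesterol synthesis list 12 of 20 genes passed in control mice with a lower level at ZT12 and 0 with a higher one. Over all genes 1.73% passed in either direction. The list median was -0.61 and 19 of the 20 had a lower fitted level. The 1 other gene had a log2 fold change of 0.40, with an unadjusted p under 0.05 by edgeR. In the average over the genotypes 13 of the 20 passed and fell, beside 0.805% of all genes. The leading genes of the list were *Nsdhl*, *Cyp51* and *Sqle*, which encode enzymes of sterol synthesis. They were at -0.79, -0.67 and -0.75 in control mice, and in the average at -0.72, -0.63 and -0.57. In knockout mice 0 of the 20 passed and 12 had an unadjusted p under 0.05 with a lower level at ZT12, beside 4.09% of all genes.

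Other lists of fatty acid metabolism held few calls, beside 1.73% of all genes in control mice and 0.805% in the average. At these shares few calls fall in lists of this size, so the counts do not set the lists apart from all genes. For acetyl-CoA and NADPH supply 0 of 7 genes passed in control mice, for fatty acid oxidation 0 of 15 (and 0 with an unadjusted p under 0.05), and for fatty acid uptake, storage and release 0 of 11. Of 27 genes of acyl-CoA activation and glycerolipid assembly 1 passed, *Lpin1*, which encodes a phosphatidate phosphatase and fell by 0.82 on the log2 scale (SE 0.15, adjusted p = 0.0107 by edgeR) in control mice and by 0.53 in the average (adjusted p = 0.0206 by edgeR). Of 16 other elongation and desaturation enzymes 0 passed in control mice and 1 in the average, *Hsd17b12*, the ketoacyl reductase of the elongation cycle, which fell by 0.56 (SE 0.13, adjusted p = 0.0299 by edgeR). In control mice 7 genes of glycerolipid assembly had an unadjusted p under 0.05 by edgeR with a lower level at ZT12, and 3 with a higher one. For other elongation and desaturation these counts were 2 and 1, and for acetyl-CoA and NADPH supply 1 and 0. Over all 20256 genes tested they were 1795 and 1862. The list medians in control mice were -0.16 for acetyl-CoA and NADPH supply, 0.02 for other elongation and desaturation, 0.03 for glycerolipid assembly, 0.05 for oxidation and 0.10 for uptake, storage and release.

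**Figure D5:**
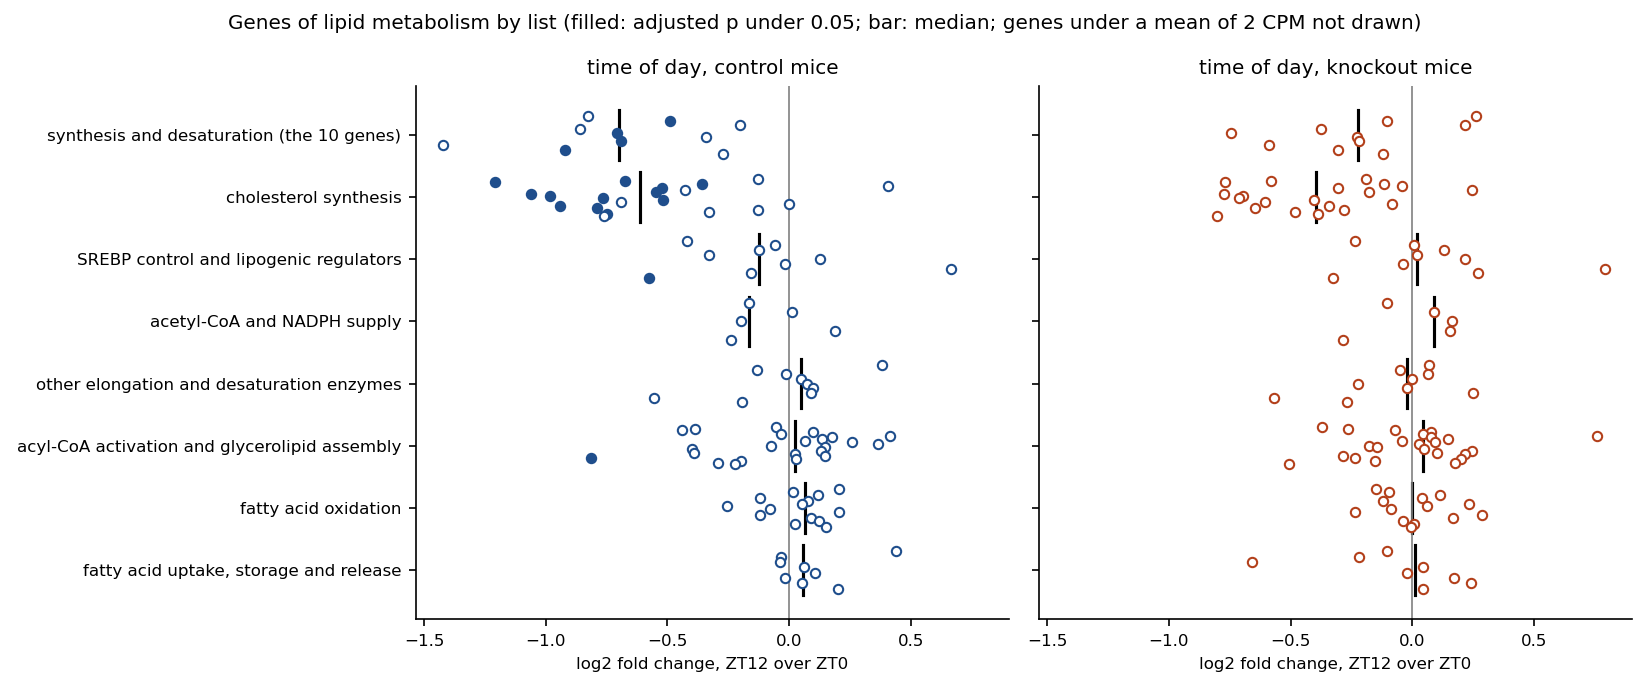
Log2 fold change of ZT12 over ZT0 for genes of 8 lists in control mice (left) and knockout mice (right), 1 point per gene with a mean of at least 2 CPM; filled points passed the adjusted test and black bars are medians. In control mice the medians of the 10 genes (-0.70) and of cholesterol synthesis (-0.61) lie to the left of the other 6 lists, which lie between -0.16 and 0.07.

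By Pearson's r with the mean standardized log2 CPM of the 10 genes over the 21 libraries, the 5 most similar of 6926 other genes were *Tcf20* (0.93), *Mtdh* (0.92), *Faxc* (0.92), *Srebf2* (0.91) and *Klf7* (0.91). These libraries include the group differences and the libraries of high immunoglobulin share, and the values are a description.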

How the data were processed

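RNA was measured by paired-end poly-A RNA-seq of CD138+ IgA+ plasma cells, 1 library per mouse, in 21 libraries. The values deposited by the authors are raw read counts per gene, and the aligner, counter, strand setting and genome build are not given in the sources used here. Coordinates are those of the deposited table. The authors used DESeq2 with a total count filter of 10.

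Here, edgeR 4.0.16 (R 4.3.3) was fitted to all 21 libraries with a mean for each of the 4 groups, TMM scaling, genes with a total count of at least 10 and robust quasi-likelihood tests, with Benjamini-Hochberg adjustment over 20256 genes and a threshold of 0.05. DESeq2 1.42.0 was an alternative. Levels are TMM-scaled CPM. Correlations used 100000 permutations (numpy 2.4.6). Intervals of counts are 95% Wilson intervals and cover counting error only. Depth was 14471018 to 22785835 counts per library, which gives 8 to 182 counts for *Acaca* and 964 to 3054 for *Fasn*. The tests were checked on simulated counts.

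The 10 genes and all lists were chosen with earlier results of these data known. Outside the 10, the text names *Arntl* and *Cd79a*, 6 SREBP pathway genes, up to 3 called genes per list with the smallest p, and the 5 genes of most similar pattern. *Pecam1* and the adipocyte and plasma cell markers were named after their values were seen. Promoters were to be printed for the genes called in the averaged comparison, which had no entry, and 3 others were printed instead.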

Additional observations from a re-analysis of the deposited data

Results flagged for a closer look

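In 4 of 40 sets of a gene and a group, 1 library stood apart from the rest by Dixon's test at 95%, which chance does in about 1 in 20 sets. *Acly* in knockout ZT0 replicate 3 was the lowest of 4 at 56.9 CPM against 76.6 CPM in the nearest library, and that library had an immunoglobulin share of 59.4%. *Elovl6* in knockout ZT12 replicate 5 was the highest of 5 at 11.8 CPM against 7.53 CPM in the nearest, and that library held 819 CPM of epithelial markers. *Scd2* in control ZT0 replicate 4 was the highest of 6 at 111 CPM against 89.7 CPM. *Fads2* in knockout ZT0 replicate 2 was the highest of 4 at 37.2 CPM against 28.4 CPM.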

How the results depend on the processing

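In control mice 4 of the 10 genes passed. The count was 7 with DESeq2, 2 with the control groups fitted alone, 0 with the immunoglobulin share as a covariate, 0 without the 4 libraries of high share and 0 at a threshold of 0.01, and it lay between 2 and 5 when 1 library was left out. It came to 2 without any 1 of control ZT0 replicates 1 to 5 or control ZT12 replicates 2, 3 and 4. In knockout mice 0 passed, and 1 (*Fads1*) with DESeq2 and without the 2 libraries of high epithelial markers, with a range of 0 to 1 when 1 library was left out (1 without knockout ZT12 replicate 5). In the average 2 passed, with 5 under DESeq2, 1 at the threshold of 0.01 and 2 to 4 when 1 library was left out (4 without control ZT12 replicate 1). Over all genes the count in the average was 163, against 664 with DESeq2 and 291 without control ZT12 replicate 1. The interaction and the 3 genotype comparisons called 0 of the 10 under every alternative run. With the length trend removed 1 pair of genes was correlated in place of 2. Over all genes the count in control mice was 350, against 1052 with DESeq2, 38 with the control groups alone, 183 with the replicate block, 143 with the epithelial marker covariate, 150 without the 2 libraries of high epithelial markers and 12 without the 4 of high immunoglobulin share. Except where stated in the report, the cause of these changes was not tested.

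Replicate numbers occur in each group, and whether they mark pairs or cohorts of mice is not given in the sources used here. Of 28 same-numbered pairs 10 had a correlation of deviations above 0.1, with a range of -0.41 to 0.41. Differently numbered pairs reached 0.69 (control ZT12 replicate 2 with knockout ZT0 replicate 3) and 0.64 (control ZT12 replicate 6 with knockout ZT0 replicate 4). The deposited count columns pass through the 4 groups in repeated runs, and whether these runs mark cohorts is not given in the sources used here. The pair at 0.64 lay in the same run and the pair at 0.69 in different runs. Groupings of the mice other than by replicate number, such as these runs, were not tested, and the main fit holds no term for them. With the replicate number as a block 2 genes passed in control mice and 1 in the average (*Scd2* had an adjusted p of 0.0519 by edgeR there), and 0 in the other comparisons. Fits of own groups alone do not apply to the interaction and averages and were not run. *Acaca* rests on 8 to 182 counts per library, which limits its precision.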
